A study of Caenorhabditis elegans with 2 samples.

Results

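The genes described here encode proteins of the mitochondrial respiratory chain, the ATP synthase and the mitochondrial ribosome of Caenorhabditis elegans. They were chosen by name: nuclear protein-coding genes of the Ensembl WBcel235 annotation called nuo, gas, cox, cyc, isp, sdha, sdhb, ucr, atp, mrpl or mrps with a number, 109 of the 19973 nuclear protein-coding genes. The question put to the data was which of them had a peak of the protein of Y79H2A.3, for which the RefSeq annotation names a C2H2-type domain, near a transcript start. Chromatin immunoprecipitation with an anti-GFP antibody was sequenced from whole young adults, aged 63 hours, of strain RW12273, whose Y79H2A.3 locus carries the CRISPR insertion st12273 with TY1, EGFP and 3xFLAG tags. The worms were synchronised by starving larvae hatched after bleaching, and all of them carried the tag. There is 1 group of 2 biological replicates and no second condition, so values are given as descriptions, without a test. No untagged precipitation or input was analysed here, whole animals mix all tissues, and the depth of the libraries is unknown.

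The respiratory chain passes electrons from NADH and succinate through complexes I to IV to oxygen, and the proton gradient it builds drives the ATP synthase. A few subunits are encoded in mitochondrial DNA and are made by the mitochondrial ribosome. All proteins of that ribosome, and most subunits of the chain, are encoded in the nucleus, so nuclear promoters set the supply of many parts of the same machines. In worms these genes are active in most tissues, and the germline of adults is rich in mitochondria.

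The window of a gene reached from 1000 bp before to 200 bp after each annotated transcript start, and a gene with a peak summit in it is called bound here. The main peak list is the deposited conservative list, built from the comparison of the replicates, with 1021 peaks. Peaks in it passed an irreproducible discovery rate (IDR) of 0.01, which is 2 on the −log10 scale used below. The signal value of a peak is the height the authors deposited for it, in a unit that the files do not name. The ranked lists also hold peaks that failed the threshold, and a ranked peak alone is weak evidence of binding, since 66.0% of all protein-coding genes had a summit in the window in the list that ranks peaks by comparing the replicates (the ranked comparison list). Ranked values and ranked summits below are those of that list unless another is named.

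The 8 bound genes were cox-5A, cox-5B, cox-6A and cox-6B of complex IV, atp-1 and atp-5 of the ATP synthase, and mrpl-23 and mrpl-32 of the large mitochondrial ribosomal subunit. Sequence is shown for 4 of them, to let the letters under the summits be seen.

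The sequences cover intergenic sequence upstream of cox-5A, an intron of cox-6B that also lies upstream of other genes, a promoter shared with another gene at atp-5, and the stretch between a gene pair of the same strand at mrpl-32. Those of the other bound genes are not shown. Each is written 5′ to 3′ on the strand of the named gene from the RefSeq WBcel235 genome, and spans 75 bp on each side of the summit. That of mrpl-32 was shortened to 106 bases to leave out the annotated untranslated region of rpn-3. In the sequence of atp-5, capitals mark the motif CGCGCC and 2 copies of TTTCAG.
cox-5A (chrIII:12905083-12905233, plus strand): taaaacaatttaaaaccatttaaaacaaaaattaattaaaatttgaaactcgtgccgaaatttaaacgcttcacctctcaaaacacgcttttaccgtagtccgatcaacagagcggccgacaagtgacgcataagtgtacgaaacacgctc
cox-6B (chrIII:2785964-2786114, plus strand): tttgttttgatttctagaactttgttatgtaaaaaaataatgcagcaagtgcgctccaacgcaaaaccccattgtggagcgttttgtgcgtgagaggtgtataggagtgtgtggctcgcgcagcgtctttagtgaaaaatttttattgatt
atp-5 (chrV:11124022-11124172, minus strand): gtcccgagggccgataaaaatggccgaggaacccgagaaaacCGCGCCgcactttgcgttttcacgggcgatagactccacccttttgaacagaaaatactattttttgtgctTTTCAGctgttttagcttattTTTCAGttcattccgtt
mrpl-32 (chrIII:8449347-8449452, plus strand): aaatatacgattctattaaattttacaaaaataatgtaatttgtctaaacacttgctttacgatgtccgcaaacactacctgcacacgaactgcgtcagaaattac

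With 8 of 109 bound, the share was 7.34%, against 2.88% of all protein-coding genes. The bound genes were unevenly spread over the machines. Of the 39 genes of the respiratory chain and the ATP synthase 6 were bound (15.4%), and of the 70 mitochondrial ribosomal protein genes 2 were (2.86%), a share close to that of all coding genes. All 6 of the former encode subunits of complex IV or the ATP synthase. In the set, none of the 7 genes of complex I, 3 of complex II, 7 of complex III or 2 of cytochrome c was bound. Nor was any of the 8 of complex IV assembly or 29 of the small ribosomal subunit. With so few genes in each of these groups, a count of 0 does not show a lower share.

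Every thresholded list held a larger share of these genes than of all coding genes, but the lists share reads and are not separate evidence. In the list from the pooled reads 9 were bound (8.26%, against 2.60% of coding genes), the same 8 with mrpl-15 added. In the list of replicate 1 alone 7 were bound (6.42% against 1.41%). In that of replicate 2 alone only 3 were bound (2.75% against 1.19%): cox-5A, cox-5B and mrpl-15. Of the 8 bound genes, 6 were thus found again in replicate 1 and 2 in replicate 2.

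**Figure D1:**
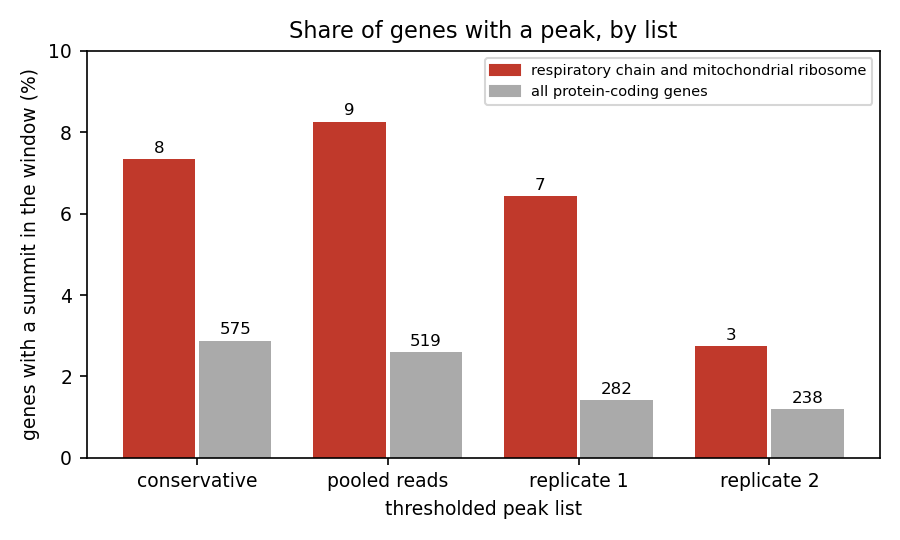
Percent of genes with a summit in the window (y axis) in each of the 4 thresholded lists (x axis), for the 109 genes (red) and all 19973 protein-coding genes (grey), with the number of genes above each bar. The red bar is above the grey bar in every list, at 3 genes in replicate 2 and 7 to 9 in the others.

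These genes lie where peaks are more common, which bears on the comparison with all coding genes. Chromosomes I and III carry 26 and 31 of the 109, and there 4.93% and 4.81% of coding genes were bound. The X chromosome carries 4 of them, where 0.549% of coding genes were bound. Autosomal coding genes as a whole had a share of 3.25%, and the 105 autosomal genes of the set one of 7.62%. With coding genes weighted to the chromosomes of the set, the coding share was 3.73%. The set was also rich in close neighbours. A coding gene of the opposite strand started within 1000 bp upstream for 41.3% of the set and 17.5% of coding genes. A coding gene of the same strand ended within 500 bp upstream for 38.5% and 18.1%. Bound shares among all coding genes were 6.17% with the first arrangement, 3.88% with the second and 1.70% with neither. In the set they were 6.67% (3 of 45), 4.76% (2 of 42) and 13.6% (3 of 22). The set thus lay near the coding genes in both arrangements with a close neighbour. Its excess was mostly that of the 3 bound genes without one, cox-5A, cox-5B and cox-6A. This split rests on the limits used, on the outermost start of each gene and on coding neighbours only. The cox-6A summit lay in an exon of a noncoding gene. At cox-5B the gap to tba-1, on the opposite strand, was 1100 bp, just past the limit. cox-6B was classed from its first start, though its peak lay near a later one. Weighted to chromosome and arrangement together, the coding share was 5.22%, against the 7.34% of the set.

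Complex IV, cytochrome c oxidase, passes electrons from cytochrome c to oxygen. Of its 7 nuclear-encoded subunit genes in the set, 4 were bound. The tallest peak was at cox-5B, which had a pair of conservative peaks in its window. The first (chromosome I, 9788585 to 9788880) had its summit 8 bp inside the transcript start, in the 5′ untranslated region, and a signal value of 146.5. Its value was 73.0 in the list of replicate 1 and 75.7 in that of replicate 2. The second (I, 9787942 to 9788237) had its summit at −635 bp from the start of cox-5B and at −466 bp from that of tba-1, an alpha tubulin gene on the opposite strand, with a signal value of 133.9. Replicate 1 gave 63.9 and replicate 2 gave 66.7 there. These peaks stood close to each other in height, and both replicates ranked them among the taller peaks of the set.

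At cox-5A the summit lay at −333 bp from the start (III, 12905010 to 12905305), in intergenic sequence that no other gene's window covers. Its signal value was 137, with 76.0 in replicate 1 and 58.4 in replicate 2. cox-5A and cox-5B were the 2 genes of the set with a conservative peak and a thresholded peak in each replicate. The proteins of both are nuclear-encoded subunits on the matrix side of the enzyme in mammals.

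The cox-6B peak (III, 2785891 to 2786186) had a signal value of 102.5, with 54.7 in replicate 1 and 48.8 in replicate 2. Its summit lay at −163 bp from the nearer of the 2 starts of cox-6B, in an intron of that gene. That start is the later one. With only the most upstream start counted, or with peaks given to the nearest start, cox-6B was not bound. The same summit lay at −91 bp from Y71H2AM.20, annotated in RefSeq as a phosphatase activator, and at −813 bp from nduc-2, a complex I subunit gene that the naming rule does not take. The peak was thus in the windows of genes for a pair of respiratory complexes.

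The peak counted for cox-6A, on III, was at the far end of the window, at −904 bp. It had a signal value of 76.0, with 38 in replicate 1 and 36.1 in replicate 2. Of the 31-mers in this peak 69.5% were unique in the genome, and 100% in each of the other 8 peaks of the bound genes. The part of repeated sequence in its signal value was not tested. cox-6A was the nearest protein-coding gene, but a noncoding gene started nearer to the summit. The summit lay in an exon of that gene, the small nuclear RNA gene F54D8.7, 78 bp past its start.

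The other complex IV subunit genes had ranked peaks only, with signal values of 45.8 at cox-6C, 33.3 at cox-4 and 33.2 at cox-7C. Their −log10 IDR was 0.76, 0.89 and 0.36, all short of 2. The assembly factors of the complex insert its heme and copper and put its subunits together. The 8 in the set had the lowest median of all its groups. Factors with other names are outside the set, among them coa-7 and sco-1, which were bound. Of the 8 in the set, 4 had no summit in the ranked comparison list: cox-10, a heme farnesyltransferase gene, cox-14, cox-18 and cox-19. Of the 4, cox-19 had a summit of 16.95 in the ranked list of replicate 2 and of 21.15 in that of the pooled reads. Ranked values were 43.1 at cox-11, which serves copper insertion, 32.7 at cox-17, a copper chaperone gene, 26.7 at cox-16 and 20.4 at cox-15, a heme synthesis gene. Their median was 10.2, counting genes without a summit as 0, against 76.0 for the subunit genes and 21.4 for all coding genes.

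The ATP synthase turns the proton gradient into ATP. All 5 of its genes in the set had ranked peaks in the upper 10% of coding genes, which starts at a signal value of 46.9 and holds 10% of them by construction. The lowest of the 5 was 51.1, and their median was 62.1. ATP synthase genes named asb or asg are outside the set, and none of them was bound. atp-5, the gene of subunit d, had a conservative peak (V, 11123949 to 11124244) at −230 bp, with a signal value of 102.3. Replicate 1 gave 55.3 and replicate 2 gave 55.9. That summit lay at −89 bp from lmtr-3, a gene of the opposite strand whose product RefSeq describes as an adaptor of the late endosome and lysosome.

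At atp-1, the gene of the alpha subunit, the summit lay 15 bp past the start, in the 5′ untranslated region (I, 12652144 to 12652439). It had a signal value of 98.3, with 53.9 in replicate 1 and 49.97 in replicate 2. It lay at −205 bp from mcrs-1 on the opposite strand. The other 3 genes fell short of the threshold. atp-4, coupling factor 6, had 62.1 and a −log10 IDR of 1.81, the closest to the threshold of any unbound gene of the set. atp-2, the beta subunit, had 54.6 at a site at −908 bp with a −log10 IDR of 0.23, and atp-3, the oligomycin sensitivity conferral protein, had 51.1 with 1.24.

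**Figure D2:**
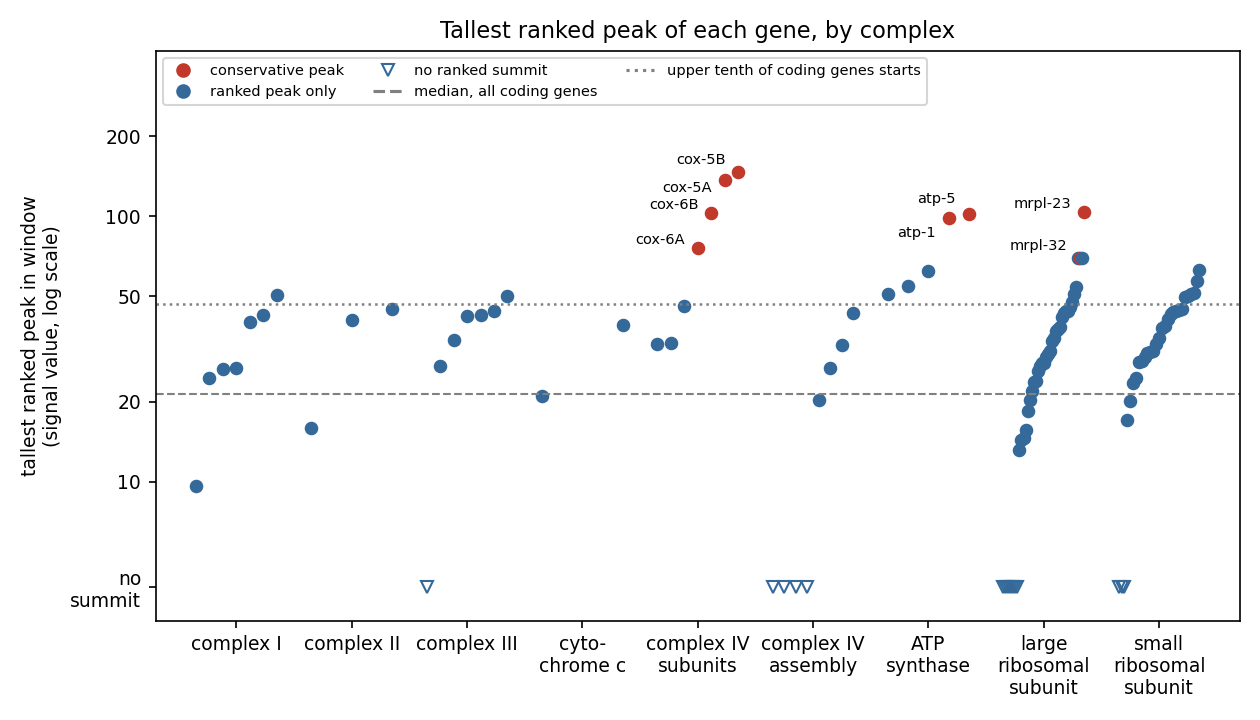
Signal value of the tallest ranked peak in the window of each of the 109 genes (y axis, log scale), by complex (x axis), with conservative peaks in red, other ranked peaks as filled blue circles and genes without a summit in the ranked comparison list as open triangles. The dashed line is the median of all coding genes (21.4) and the dotted line the start of their upper 10% (46.9), which all 5 ATP synthase genes exceed.

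In the set, complexes I to III and cytochrome c held no bound gene. Complex I genes with names beginning in ndu are outside the set, and 3 of 25 such genes were bound. Complex I takes electrons from NADH. Its 7 genes in the set had ranked values from 9.61 at gas-1, on X, to 50.5 at nuo-2, a core subunit gene, with a median of 26.9. The value of gas-1 was the lowest among the genes of the set with a ranked summit. nuo-2 was the only one of the 7 in the upper 10%. Complex II, succinate dehydrogenase, had 44.9 at sdhb-1, the iron-sulfur subunit, 40.6 at sdha-2 and 15.9 at sdha-1, which lies on X. Those flavoprotein subunit genes thus differed in their tallest ranked peak.

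Complex III passes electrons from ubiquinol to cytochrome c. It ranged from no ranked summit at ucr-2.2, on X, to 49.9 at cyc-1, the cytochrome c1 gene, with a median of 42.1. isp-1, the Rieske iron-sulfur protein gene, had 42.1, and ucr-1 44.0. Of the cytochrome c genes, cyc-2.1 had 38.8 with a −log10 IDR of 1.55, and cyc-2.2 had 21.0 with 0.22. cyc-2.1 begins 110 bp downstream of rpl-20, a gene of the cytosolic ribosome with a conservative peak of its own.

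The mitochondrial ribosome was bound at 2 large-subunit genes. The mrpl-23 peak (I, 6212689 to 6212984) had its summit at −952 bp, inside an intron of fars-1, the neighbouring phenylalanine tRNA ligase gene, and in exons of a pseudogene and of the noncoding gene T08B2.14 there. It was at −13 bp from the start of T08B2.13, a small nucleolar RNA gene. It had a signal value of 103.7, with 62.4 in replicate 1 and 47.7 in replicate 2. The mrpl-32 peak (III, 8449229 to 8449524) had its summit at −380 bp, between that gene and rpn-3, a proteasome gene of the same strand. The summit was in no other gene's window, and the peak reached into the annotated untranslated region of rpn-3. Its signal value was 69.6, the lowest of the bound genes, with 44.8 in replicate 1 and 34.7 in replicate 2.

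Peaks of the same height as that of mrpl-32 fell on either side of the threshold. The mrpl-15 peak, at −546 bp, had a signal value of 69.5 and was 21.1 in replicate 1 and 50.8 in replicate 2. It passed in the pooled list and in replicate 2, and its −log10 IDR between the replicates was 1.28. The mrpl-17 peak that passed in replicate 1 was 46.9 there and 20.6 in replicate 2, with a −log10 IDR of 0.86. It lay at −622 bp from mrpl-17 and at −21 bp from vbh-1, an RNA helicase gene. At these unbound genes the replicates were far apart, and at mrpl-32 they were closer (−log10 IDR of 2.44).

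Below them, the highest ranked values of mitochondrial ribosome genes were 62.9 at mrps-16, 56.9 at mrps-6, 54.2 at mrpl-12 and 51.6 at mrps-22. mrpl-1 and mrps-24, on opposite strands, shared a ranked peak of 51.1. The lowest values were 13.2 at mrpl-44, 14.4 at mrpl-11, 14.6 at mrpl-41 and 15.6 at mrpl-19. In the ranked comparison list no summit was found for mrpl-20, mrpl-22, mrpl-24, mrpl-30, mrpl-37, mrpl-38, mrpl-46, mrpl-47, mrps-9, mrps-28 and mrps-31. The ranked list of replicate 2 alone did hold summits for 6 of these, with 35.8 at mrpl-38, 25.02 at mrps-9, 19.8 at mrpl-24, 17.01 at mrpl-47, 16.01 at mrpl-20 and 14.9 at mrpl-46. That of replicate 1 held none for any of the 11. The median was 28.1 for the 41 large-subunit genes and 34.7 for the 29 small-subunit genes, although all bound ribosome genes were of the large subunit.

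**Figure D3:**
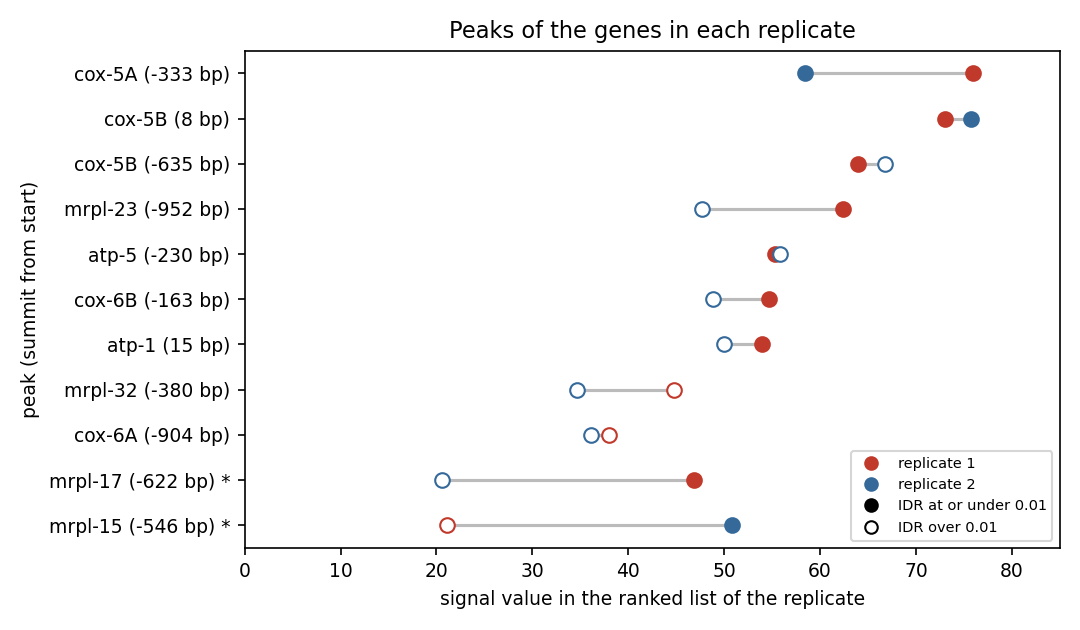
Signal value (x axis) in the ranked list of replicate 1 (red) and of replicate 2 (blue) at the 9 conservative peaks of the bound genes and, with an asterisk, at mrpl-17 and mrpl-15 (y axis, with the distance of the summit from the start). Filled circles mark an IDR of 0.01 or less in that list, which holds for 7 of the 9 peaks in replicate 1 and 2 in replicate 2.

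In each replicate, all 9 conservative peaks of the bound genes had a ranked peak. Values ran from 38 to 76.0 in replicate 1 and from 34.7 to 75.7 in replicate 2. The replicate columns of the comparison list held the same values as the replicates' own lists at all 9. These sites were chosen for likeness between the replicates by the IDR, so their closeness is partly fixed by the choice. The replicate lists may be on different scales, so no direction is read from their difference.

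The ranked lists also placed the set above coding genes as a whole. In the ranked comparison list, 93 of the 109 genes had a summit in the window, 7 of the other 16 had one in the ranked list of replicate 2, and 24 (22.0%) were in the upper 10% of coding genes. The median of the set was 33.3 and that of all coding genes 21.4, counting genes without a summit as 0. These values were not weighted for chromosome or neighbours. Among coding genes the median was 26.8 with a close divergent coding gene upstream, 25.9 with a close same-strand one and 18.7 with neither. In the set these medians were 34.7, 31.9 and 31.6. In the ranked list of the pooled reads 89 had a summit, against 57.0% of coding genes. In replicate 1 alone 73 genes had a summit, against 46.8% of coding genes, and 32 were in the upper 10% (29.4%). In replicate 2 alone 74 had a summit, against 49.6%, and 25 were in the upper 10% (22.9%). The windows were not longer than others, with a median of 1201 bp for the set and for coding genes. Across the 55 genes with a value in both replicate lists, Spearman's rho of the tallest peaks was 0.48 and Pearson's r of the log10 values 0.65, against 0.43 and 0.52 over the 6394 coding genes with such values. These are values across genes in 1 pair of libraries, and the tallest peaks need not be at the same site.

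Most bound genes shared their peak with a neighbour. Only cox-5A and mrpl-32 had peaks in no other gene's window. The peaks of cox-6B, atp-5 and atp-1, and the upstream peak of cox-5B, were also in the window of another coding gene. Those of cox-6A and mrpl-23, and the peak at the start of cox-5B, were in the windows of noncoding genes, as was that of atp-1. For the tallest peak of each gene, 3 of the 8 were shared with a coding gene, against 44.5% of the 575 bound coding genes. Such peaks cannot be assigned to either gene from position alone. Counted only where the gene's own start was the nearest of all annotated starts, cox-5A, cox-5B, atp-1 and mrpl-32 remained, 3.67% of the set against 1.77% of coding genes. The median summit distance was −281.5 bp for the bound genes of the set and −259 bp for all bound coding genes.

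**Figure D4:**
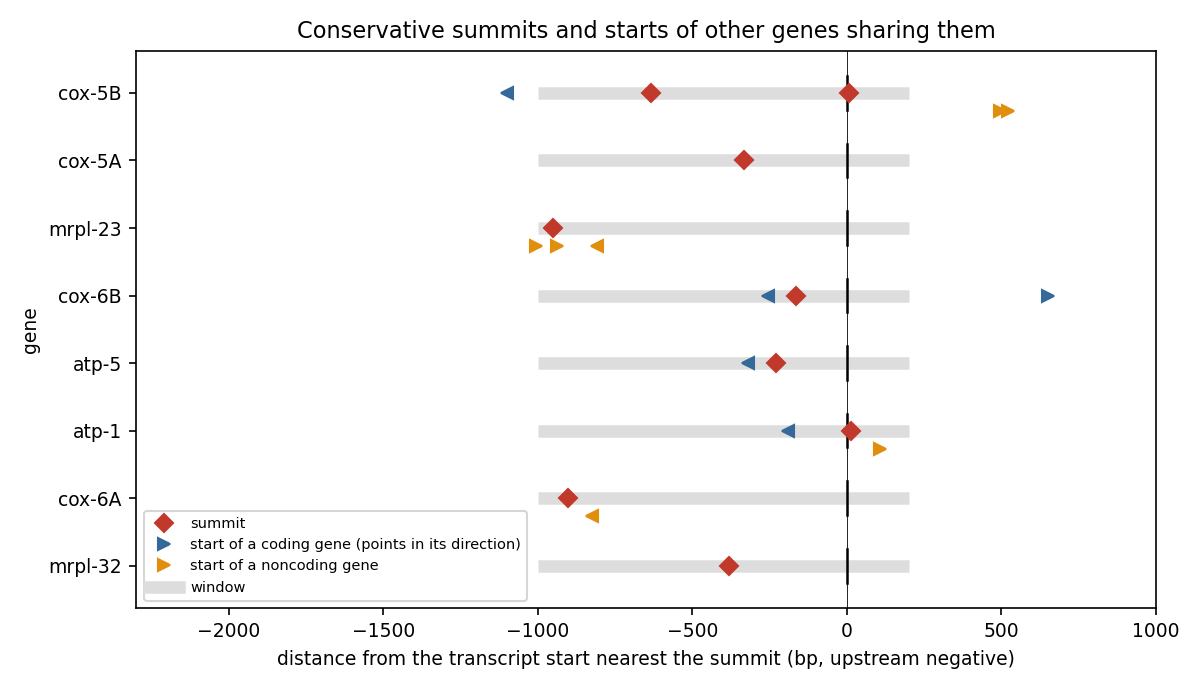
Summits of conservative peaks (red diamonds) in the window (grey) of each of the 8 bound genes (y axis), by distance from the transcript start nearest the summit in bp, upstream negative (x axis). Arrowheads are starts of other genes whose windows hold the same summit, blue for coding and orange (drawn lower) for noncoding genes, pointing right where they are on the strand of the named gene. Only cox-5A and mrpl-32 have none.

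Many worm genes of this kind lie in operons, where a promoter before the first gene serves those after it. The annotation used does not mark operons, so runs of same-strand coding genes with gaps of at most 500 bp were followed to their first gene, a measure chosen after the values above were seen. Of the 42 genes of the set in such a run behind another gene, 9 (21.4%) had a conservative peak in the window of the run's first gene, against 5.73% of all coding genes so placed. These runs were not checked against known operons.

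The 9 include genes of complexes that had no bound gene in the set. The tallest such peak was that of rpl-20 ahead of cyc-2.1 on IV (201.9), at −289 bp from rpl-20 and −1055 bp from cyc-2.1. nuo-4 of complex I lay in a run led by syf-2, a splicing factor gene, on III (93.0), and ucr-11 of complex III in one led by dad-1, an oligosaccharyltransferase gene, on I (85.03). The assembly factor gene cox-11 lay in a run led by lin-54 on IV (88.5), and cox-18 in a run led by Y55F3AR.2 on IV (119.1). For the ribosome, the first genes were nrde-2 on II for mrps-14 (135), clsp-1 on I for mrpl-54 (122.1) and rpn-3 on III for mrpl-32 (87.9). The run of mrps-21 is led by F29B9.11 on IV (89.5), which RefSeq annotates as a cytochrome c oxidase polypeptide. mrpl-32 is the only one of the 9 with a conservative peak in its own window as well.

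Short motifs, 5 in number, were looked for on both strands, and none of them contains another. Within 50 bp of the tallest summit of each bound gene, CGCGCC was found at atp-5, TTTCAG also at atp-5 and CCGCCC at atp-1, that is 1 of 8 (12.5%) each, while CTGCGTCTC and GATAAG were at none. Of all 1021 conservative peaks, 10.4% held CGCGCC, 11.2% TTTCAG, 3.33% CCGCCC, 3.04% CTGCGTCTC and 3.33% GATAAG in that window. CGCGCC was already known from these peaks, so its presence is no independent result. From 250 bp before to 50 bp after the most upstream start, CGCGCC was present in 12 of the 109 genes (11.0%) and in 4.59% of all coding genes. For CCGCCC the shares were 12.8% and 7.87%, for TTTCAG 64.2% and 51.7%, for GATAAG 10.1% and 16.8%, and for CTGCGTCTC 2.75% and 2.93%. These are matches of letters, not sites of the factor.

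Other mitochondrial genes, taken by names such as nduf, asb, asg, coa, sco, timm and tomm, were counted beside the set. Of 50 such genes 5 were bound (10%), and their median ranked value was 32.3. They were mtcu-2 on II (245), a gene for modification of mitochondrial tRNAs, hsp-60 on III (146.7), the chaperonin, nduf-2.2 on III (123.3), a complex I subunit gene, sco-1 on II (97.9), whose relatives in other species deliver copper to complex IV, and coa-7 on II (73.3), a complex IV assembly factor gene. Of 25 complex I genes with names beginning in ndu, a list drawn up after the values were seen, 3 were bound: ndub-8, nduf-2.2 and nduc-2. Of the 78 cytosolic ribosomal protein genes named rpl or rps, 20 were bound (25.6%), with a median ranked value of 41.4. The shares of these lists were not tested against each other.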

How the data were processed

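The data are 8 peak lists on ce11 (4 thresholded, 4 ranked), per the labels and the deposited file descriptions. The signal value of each peak was deposited by the authors and was not rescaled. The −log10 of the global IDR was deposited in the ranked lists. Aligner and peak caller: not given in the sources used here. The lists hold no counts, so neither depth nor counting error can be stated. Of 120 columns, 74 were not used.

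Gene models came from Ensembl release 115 and sequence from RefSeq, both WBcel235, whose 6 nuclear chromosome lengths held every peak. Summits were assigned to windows with Python 3.11.15 and numpy 2.4.6. The window code was tested on 2000 made-up genes and placed all of them right. A percentile or upper 10% is among all nuclear protein-coding genes of the same list. The genes and lists were chosen with earlier results of these data known, so no list was tested. The rule for named genes takes every bound gene, the 10 others of highest and the 5 of lowest ranked signal value, and those in any thresholded list. Genes beyond it were named to complete their complex and were chosen after their values were seen. Alternatives were other windows, assignments and lists, and each replicate alone. The labels call the replicates biological and say no more of how they were grown apart. The sequence at the cox-6A peak is not reported here.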

Additional observations from a re-analysis of the deposited data

How the results depend on the processing

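The bound count of 8 was within 1.5 times in 9 of the 11 other settings, from 6 to 12, and the coding share moved too. With a window of 500 bp upstream and 100 bp downstream the count was 6 (5.5%, against 2.12% of coding genes). With 2000 bp and 500 bp it was 12 (11% against 4.12%), with cyc-2.1, ucr-11, mrpl-36 and mrps-21 added. With the most upstream start only it was 7 (6.42% against 2.66%), without cox-6B. It was 4 with peaks given to the nearest start of any kind, where coding genes had 1.77%, and ranged from 3 to 7 in single replicates (3 without replicate 1). By group, complex IV subunits had 2 bound with nearest starts of any kind and 2 to 3 in single replicates. The ATP synthase had 1 with nearest starts, of any kind or protein-coding, and 0 to 2 in single replicates, with 0 in replicate 2 alone. The large ribosomal subunit had 1 with the shorter window, with nearest starts of any kind and with peaks at or above the median signal value, and 1 to 2 in single replicates. With the longer window complex III, cytochrome c and the small ribosomal subunit had 1 each, and the last also had 1 when any base of a peak counted. The share in the upper 10% ranged from 22.9% to 29.4% in single replicates. The cause of these shifts was not tested. Peaks in which at least 50% of 31-mers are unique held all 8. No paired analysis was possible because the study has 1 group. Annotated starts of trans-spliced genes may lie downstream of where transcription begins, which moves the window. No library depth is known, so a gene without a peak may be below detection.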
